A study of Mus musculus with 8 samples.

Results

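The clade B serpins described here are 6 genes of the intracellular branch of the serine protease inhibitor superfamily: Serpinb1a, Serpinb2, Serpinb6a, Serpinb8, Serpinb9 and Serpinb10. They were chosen from the knockout comparison itself, because Serpinb1a was higher in the knockout, and the other members belong to its family. Why these were taken from the 28 listed mouse clade B serpins is not stated. The 6 make up 6 of the 56748 genes listed, and all 6 were among the 11222 genes with enough reads to be tested. Because the choice used the difference between genotypes, values of the members in knockout and wild type are given as a description. The threshold that Serpinb1a passed is part of that choice and tests nothing here.

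RNA was sequenced in bulk from Ly6Chigh monocytes sorted from mouse spleen, at day 7 after an aneurysm had been induced, in 4 wild-type (WT) libraries and 4 libraries from Olfr2 knockout (KO) mice. Olfr2 encodes an olfactory receptor. All 8 libraries therefore share the aneurysm, and no group without one was analysed here. The labels used here name neither the method of induction nor the strain, age or sex of the mice nor the form of the knockout allele. They do not tie libraries to individual mice either, so p-values measure only the spread between libraries, which may be technical.

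Serpins act as suicide substrates: the protease cleaves an exposed loop, and the inhibitor then changes shape and holds the protease in a covalent complex. Clade B members lack a classical secretion signal and work mostly in the cytosol and nucleus, where they protect a cell from its own granule or lysosomal proteases and from granzymes delivered by other cells. Monocytes and neutrophils express several of them, and mice have many more clade B genes than humans through duplications in 2 clusters.

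Those clusters lie on chromosomes 1 and 13, and the members were split evenly between them (GRCm38, GENCODE M21). On chromosome 1, all on the plus strand, were Serpinb2 (ENSMUSG00000062345, 107511423 to 107535478), Serpinb10 (ENSMUSG00000092572, 107529003 to 107549271) and Serpinb8 (ENSMUSG00000026315, 107590006 to 107610484). On chromosome 13 were Serpinb1a (ENSMUSG00000044734, 32842092 to 32851185, minus strand), Serpinb9 (ENSMUSG00000045827, 33003250 to 33017957, plus strand) and Serpinb6a (ENSMUSG00000060147, 33917918 to 34002794, minus strand). The exons of Serpinb2 and Serpinb10 shared 291 bases on the same strand, and reads there cannot be given to either gene with certainty. Exons of Serpinb6a overlapped the opposite-strand genes Nqo2 by 762 bases, 1110046J04Rik by 584 and Ripk1 by 241, and how strand was treated in the counting is not stated. The annotation types Serpinb10 as a polymorphic pseudogene, meaning a gene that is intact in some strains only.

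The 3 neighbours on chromosome 1 are shown with their promoters because they lie close together, with Serpinb10 starting inside Serpinb2. As described below, they differed widely in level, and any part of these sequences in that was not tested. Each sequence is the 250 bases before the annotated start from RefSeq (GRCm38.p6, plus strand), at chr1:107511173-107511422 for Serpinb2, chr1:107528753-107529002 for Serpinb10 and chr1:107589756-107590005 for Serpinb8. Capitals mark matches to TATAAA (the TATA box) and TGANTCA (a loose form of the AP-1 element, with any base at N).
Serpinb2: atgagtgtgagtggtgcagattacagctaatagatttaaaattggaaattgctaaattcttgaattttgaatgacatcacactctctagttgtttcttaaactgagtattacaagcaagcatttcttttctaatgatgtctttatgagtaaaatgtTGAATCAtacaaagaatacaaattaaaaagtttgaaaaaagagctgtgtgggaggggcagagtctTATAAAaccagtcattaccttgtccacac
Serpinb10: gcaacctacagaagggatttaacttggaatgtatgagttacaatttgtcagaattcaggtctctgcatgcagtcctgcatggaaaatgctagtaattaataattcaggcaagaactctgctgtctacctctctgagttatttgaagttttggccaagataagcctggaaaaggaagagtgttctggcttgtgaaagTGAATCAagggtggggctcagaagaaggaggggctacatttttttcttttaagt
Serpinb8: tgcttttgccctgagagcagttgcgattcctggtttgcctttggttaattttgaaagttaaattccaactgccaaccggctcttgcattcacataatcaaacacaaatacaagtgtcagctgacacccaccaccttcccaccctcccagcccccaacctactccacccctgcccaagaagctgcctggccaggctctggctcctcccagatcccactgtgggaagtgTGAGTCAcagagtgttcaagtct

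These and the core bound by the myeloid factor PU.1, GAGGAA, were searched on both strands. Among 32851 promoters of the same length, TATAAA occurred in 12.4%, TGANTCA in 6.75% and GAGGAA in 23.3%. A match to this loose AP-1 form, TGANTCA, began at -94 in Serpinb2, at -54 in Serpinb10 and at -23 in Serpinb8, counting back from the base before the start. It read TGAATCA in Serpinb2 and Serpinb10 and TGAGTCA in Serpinb8. The TATAAA of Serpinb2 began at -29, and neither neighbour held one. GAGGAA occurred in none of the 3 sequences shown. RefSeq gives Serpinb2 a second entry with a later start, from which the same matches lie at -116 (TATAAA) and -181 (AP-1), and whose window has a GC content of 38.4%. The sequence shown for Serpinb2 had the lowest GC content of the 3, 32.4%, against 40.8% in Serpinb10, 52.0% in Serpinb8 and a median of 52.4% over all promoters. RefSeq promoters were matched for 5 of the 6 members, and those of Serpinb6a and Serpinb9 held none of these letters.

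Library sizes ran from 16111725 to 21728794 counts, so that 3 counts, the limit that a count of 0 allows, corresponded to 0.139 to 0.186 CPM, that is, TMM-normalised counts scaled to library size. Olfr2 itself had 0 counts in all 8 libraries, so it could not check the genotype labels. The 12 listed markers of classical monocytes were all detected and summed to 114900 to 133200 CPM in WT and 137700 to 178400 CPM in KO. Listed neutrophil markers summed to 620.5 to 1004 CPM in WT and to 2699, 4105, 1099 and 951.7 CPM in KO 1 to KO 4, and progenitor markers to 41.29 to 61.6 CPM in WT and 175.7, 260.6, 56.33 and 41.24 CPM in KO. KO 1 and KO 2 thus stood apart from the other 6 libraries in both lists, of which all 13 and all 9 genes were detected. In the other 6 libraries most of the neutrophil sum came from Mmp8 and Cd177. Without that pair, singled out after its values were seen, the sum was 63.12 to 147.4 CPM in WT and 1772, 3077, 179.1 and 116 CPM in KO 1 to KO 4. The 9 markers of nonclassical monocytes summed to 282.7 to 357.5 CPM in WT and 184.6 to 263.1 CPM in KO, and the 8 of plasmacytoid dendritic cells to 188.9 to 229.2 and 97.25 to 145.4 CPM, nearly all of it Bst2, with Siglech and Klk1 at 0 in every library. The count columns carry numbers in the 1600s (WT 1, WT 2, KO 1, KO 2) or the 1700s (WT 3, WT 4, KO 3, KO 4), and what these series mark is not stated.

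In WT monocytes the family was led by Serpinb1a and Serpinb10, with the other members an order of magnitude lower. Per kilobase of exon, Serpinb1a reached 46.1 ± 4.89 CPM (SD, n = 4), above 88.3% of 10970 tested genes with a length. Serpinb10 followed at 28.7 ± 7.06 CPM per kilobase, above 83.82% of those genes. Serpinb8 at 3.11 ± 0.42 and Serpinb6a at 2.21 ± 0.095 CPM per kilobase sat near the middle of the same ranking. Serpinb9 at 1.13 ± 0.34 and Serpinb2 at 0.529 ± 0.26 CPM per kilobase were lowest. Neighbours in this order did not overlap between WT libraries, except Serpinb9 (0.711 to 1.5) and Serpinb2 (0.345 to 0.898). The order depended on the length used. With the longest coding transcript in place of all exons, Serpinb10 led at 79.1 ± 19.5 CPM per kilobase against 55.4 ± 5.87 for Serpinb1a, and Serpinb6a, at 7.24 ± 0.31, passed Serpinb8, at 3.25 ± 0.44. On either length Serpinb10 lay far above its overlapping neighbour Serpinb2.

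**Figure D1:**
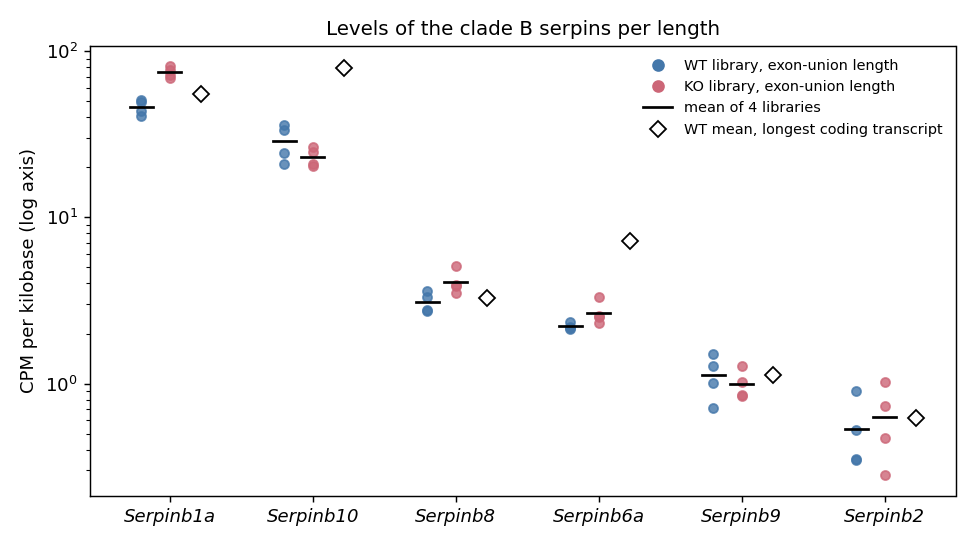
Level of each clade B serpin in WT and KO libraries, in TMM-normalised CPM per kilobase of exon on a log axis. Each point is 1 library, bars are means of 4, and diamonds are WT means over the longest coding transcript instead; Serpinb1a and Serpinb10 lie well above the rest.

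Serpinb1a inhibits the neutrophil granule proteases elastase, proteinase 3 and cathepsin G, and protects the cells that make them. It stood at 113.7, 117.5, 93.5 and 100.04 CPM in WT 1 to WT 4. The KO libraries held 159.6, 178.5, 186.8 and 165.6 CPM. Every KO library was above every WT library, and Serpinb1a was the only member whose groups did not overlap. Of all 11222 tested genes, 11.4% had groups that did not overlap in one direction or the other. The KO mean was 1.63 times the WT mean, a difference of 0.70 ± 0.12 on the log2 scale (edgeR, SE). This difference was past an adjusted p of 0.05, as it was for 1.06% of the tested genes in either direction and 0.223% in the higher direction. It was the difference that put the family on view, so nothing further is read from that count. In bulk RNA, more cells of a type that expresses the gene and more RNA per cell cannot be told apart.

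The value of Serpinb1a is set here beside the markers of other cells. KO 3 and KO 4, with neutrophil marker sums of 1099 and 951.7 CPM, held 186.8 and 165.6 CPM of Serpinb1a, and KO 1 and KO 2, with sums of 2699 and 4105 CPM, held 159.6 and 178.5 CPM. Of the 7 neutrophil markers tested, 6 had a positive difference in KO, with a median of 2.71 on the log2 scale over all 7. None passed the threshold between genotypes, and only Cd177 was negative. S100a9 stood at 479 and 789 CPM in KO 1 and KO 2, at 31.6 and 20.3 CPM in KO 3 and KO 4, and at 7.30 to 16.2 CPM in WT. Cd177 stood at 223 and 208 CPM in KO 1 and KO 2, at 282 and 321 CPM in KO 3 and KO 4, and at 323 to 392 CPM in WT. With KO 1 and KO 2 left out, the log2 difference of Serpinb1a was 0.74 ± 0.15. Within the 1600 series it was 0.54 ± 0.13, within the 1700 series 0.87 ± 0.15, and with gene length and GC content fitted as offsets 0.44 ± 0.09. The sum of classical monocyte markers was higher in every KO library. Those of nonclassical monocyte and plasmacytoid dendritic cell markers were lower in every KO library. These sums separated the genotypes as Serpinb1a did, and their part in its difference was not tested. Lyz2 and Chil3 were the largest parts of the classical sum. Lyz2 overlapped between genotypes, while Chil3 stood at 6823 to 12297 CPM in WT and 17380 to 44051 CPM in KO. Of the 11 classical markers tested, 8 had positive differences and none passed the threshold. Fn1 was lower in every KO library (log2 -1.11 ± 0.25).

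Serpinb6a, which inhibits cathepsin G and other trypsin- and chymotrypsin-like proteases, was the steadiest member in WT. Its WT libraries held 11.6, 12.7, 11.9 and 11.7 CPM. The KO libraries held 13.5, 18.0, 13.7 and 12.5 CPM. KO 4 fell inside the WT range and the other 3 KO libraries lay above it, KO 2 furthest. The log2 difference was 0.27 ± 0.16.

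Serpinb8, an inhibitor of the proprotein convertase furin, showed a similar picture at a slightly higher count level. It held 17.3, 15.9, 13.3 and 13.1 CPM in WT and 18.6, 24.4, 16.9 and 18.8 CPM in KO. Only KO 3 lay inside the WT range, and KO 2 was again the highest library. The log2 difference was 0.40 ± 0.16, and it was 0.36 ± 0.20 and 0.43 ± 0.20 within the 1600 and the 1700 series.

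Serpinb10, also called bomapin, is restricted to blood-forming and myeloid cells and inhibits trypsin-like proteases. Its WT libraries were spread widely, at 73.4, 116.8, 85.4 and 124.8 CPM. The KO libraries were closer together, at 72.9, 71.2, 86.2 and 92.9 CPM. WT 1 and WT 3 lay among the KO libraries and WT 2 and WT 4 above them all, so the groups overlapped. The log2 difference was -0.31 ± 0.17, and -0.61 ± 0.18 with length and GC offsets.

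Because Serpinb1a and Serpinb10 were similar in count, their ratio inside a library gives a comparison that needs no scaling between libraries. Counts of Serpinb1a per count of Serpinb10 were 1.55, 1.005, 1.096 and 0.802 in WT and 2.188, 2.508, 2.166 and 1.784 in KO. The ratio was higher in every KO library than in any WT library, with means of 1.11 ± 0.316 and 2.16 ± 0.296 (SD, n = 4 each). It combines a member chosen for being higher with one that was lower, and so is a description only. The ratio of Serpinb8 to Serpinb10 overlapped, at 0.105 to 0.236 in WT and 0.196 to 0.343 in KO.

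Serpinb9 inhibits granzyme B and shields cells from cytotoxic granules. It held 5.24, 4.47, 2.49 and 3.54 CPM in WT and 2.99, 2.95, 3.55 and 4.46 CPM in KO, with every KO library inside the WT range. The overall log2 difference of -0.17 ± 0.26 joined opposite directions, at -0.72 ± 0.30 within the 1600 series and 0.42 ± 0.31 within the 1700 series. With KO 1 and KO 2 left out it was 0.03 ± 0.32.

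Serpinb2, or plasminogen activator inhibitor 2, is a strongly inducible product of activated monocytes and macrophages, yet it was the least abundant member here, with 11 to 51 counts per library. It held 0.822, 1.23, 0.811 and 2.11 CPM in WT and 0.659, 1.11, 2.38 and 1.72 CPM in KO. WT 4, KO 3 and KO 4, all of the 1700 series, were the 3 highest libraries. The genotypes overlapped, and the log2 difference of 0.27 ± 0.43 was smaller than its error.

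**Figure D2:**
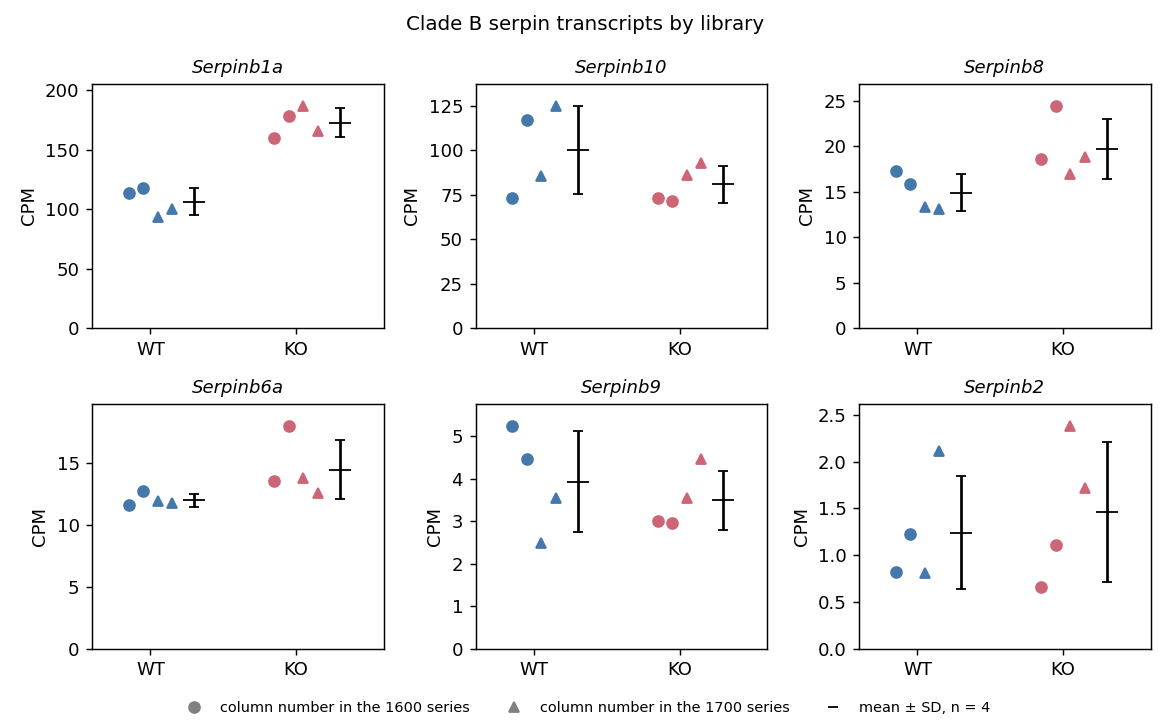
TMM-normalised CPM of each of the 6 members in the 4 WT and 4 KO libraries, with mean ± SD beside them and symbols for the column-number series. Serpinb1a is the panel in which the KO points, 159.6 to 186.8 CPM, all lie above the WT points, 93.5 to 117.5 CPM.

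A comparison that played no part in the choice of the members is that of the number series. Between the 1700 and the 1600 series, with genotype in the model, none of the 6 passed the threshold, and 0 of 11222 genes did (0.0%; edgeR, 583 at an unadjusted p under 0.05). Serpinb2 had the largest difference of the 6, 0.85 ± 0.38 on the log2 scale (unadjusted p = 0.0448, adjusted p = 0.939). Serpinb8 differed by -0.30 ± 0.15 (adjusted p = 0.949) and Serpinb10 by 0.23 ± 0.16 (adjusted p = 0.975). Serpinb1a, Serpinb6a and Serpinb9 differed by -0.10 ± 0.12, -0.15 ± 0.16 and -0.14 ± 0.26.

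Whether the genotype difference itself changed between the number series was tested as an interaction, in which 0.784% of the tested genes passed the threshold. No member did. Serpinb9 had the largest interaction, 1.12 ± 0.43 (adjusted p = 0.223), which is the gap between its opposite directions in the series. For Serpinb1a it was 0.32 ± 0.19 (adjusted p = 0.452).

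**Figure D3:**
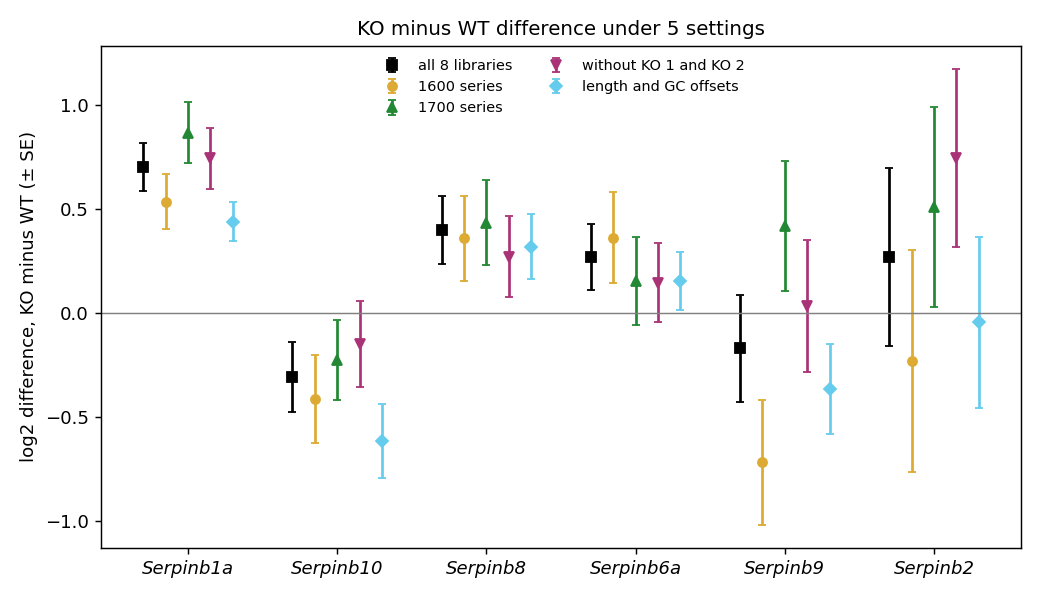
Log2 difference of KO and WT (± SE) for each member over all 8 libraries, within each number series, without KO 1 and KO 2, and with length and GC offsets. Serpinb1a lies above 0 in all of these, at 0.44 to 0.87, whereas Serpinb9 and Serpinb2 change side between the series.

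Across the 8 libraries the members fell into loose pairs, described by Pearson's r of log2 CPM. Serpinb6a and Serpinb8 had the highest overall value, 0.82, and 0.66 once each genotype was centred on its own mean. Serpinb1a and Serpinb8 reached 0.80, but 0.49 within genotypes. The overlapping neighbours Serpinb2 and Serpinb10 gave 0.59 overall and 0.77 within genotypes, the highest within-genotype value of any pair of members, for genes whose exons share 291 bases. Serpinb1a and Serpinb9 gave 0.65 within genotypes but -0.0027 overall. Serpinb8 and Serpinb10 ran opposite to each other, at -0.65 and -0.49.

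The genes most like a member were those with the highest r over the 8 libraries among genes with a mean of at least 5 CPM. For Serpinb1a these were Arhgdib (r = 0.986), D6Wsu163e (0.976), Ugdh (0.974), Gm15387 (0.972) and Ppa2 (0.971), of 6865 candidates. Within genotypes their r was 0.870, 0.862, 0.895, 0.711 and 0.819 in the same order. Serpinb1a was chosen for its genotype difference, so its r over all libraries partly ranks genes by sharing that difference. For Serpinb6a they were Gm7336, Anp32e, Pgk1, Anapc15 and Hmgb3, at 0.945 to 0.987. Pgk1 encodes the glycolytic phosphoglycerate kinase and Hmgb3 a high-mobility-group chromatin protein. Serpinb2 was most like Faim, Slc25a32, Macir, 4833420G17Rik and Bzw2, at 0.907 to 0.961. Serpinb9 was most like Zfp263, Pik3ap1, Prkcd, Emc1 and Gbp2, at 0.922 to 0.971. With 8 points and so many candidates, high values arise readily, and these lists describe the libraries only.

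The rest of the clade was almost silent. How the members were picked from the clade is not stated, so this contrast may partly restate that choice. Of the 22 other mouse clade B genes, 16 had 0 counts in every library, including Serpinb5, Serpinb11, Serpinb13 and the Serpinb3 genes. Serpinb7 was the 1 gene of these with enough reads to test, at 0.92, 1.77, 1.35 and 1.30 CPM in WT and 1.74, 0.31, 0.89 and 1.76 CPM in KO, and its groups overlapped. Serpinb1b, a near copy of Serpinb1a, had 56 counts over all libraries and never exceeded 0.615 CPM. Reads of such near copies can be shared or lost in counting, so low values of Serpinb1b and of the Serpinb6 and Serpinb9 copies are uncertain.

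Of 30 proteases that clade B serpins inhibit and their partners, 25 were detected and 17 tested. In KO, 0 were called higher and 1 was called lower, Lrp1, against 0.223% of all tested genes called higher and 0.838% called lower. Of the 17 differences 12 were positive, with a median of 0.18 on the log2 scale. Over all tested genes 49.6% were positive, with a median of -0.0038. This list, Lrp1 included, was drawn up with earlier results of these data known, so these counts only describe it. The granule proteases that Serpinb1a and Serpinb6a inhibit were high in KO 1 and KO 2. Elane (neutrophil elastase) held 4.01, 7.71, 2.59 and 2.48 CPM in WT and 56.8, 93.2, 11.1 and 3.25 CPM in KO. Prtn3 (proteinase 3) held 34.3, 19.1, 20.2 and 33.0 CPM in WT and 81.8, 117.5, 18.0 and 13.7 CPM in KO. Ctsg (cathepsin G) held 4.62, 2.65, 4.97 and 2.61 CPM in WT and 11.1, 20.3, 6.91 and 4.97 CPM in KO. KO 1 and KO 2 were the 2 highest libraries for all 3 proteases, and KO 3 and KO 4 were lower than every WT library for Prtn3. These are the libraries with the high neutrophil and progenitor marker sums, and the part of those cells in the result was not tested. All 3 proteases are themselves in the progenitor list and make up most of its sum in KO 1 and KO 2. Without them the other 6 genes of that list summed to 13.51 to 19.73 CPM in WT and to 26.11, 29.59, 20.37 and 19.36 CPM in KO 1 to KO 4. Flt3, at 11.7 to 18.0 CPM over all libraries, made up most of that remainder. Mpo held 0 to 0.21 CPM in WT and 3.35, 5.35, 0.28 and 0.33 CPM in KO. Ms4a3 held 0 to 0.39 CPM in WT and 3.11, 6.89, 0.98 and 0.23 CPM in KO. Cd34 overlapped between genotypes, and Kit and Gfi1 did not exceed 4 counts. The log2 differences were 3.27 ± 1.10 for Elane (adjusted p = 0.171), 1.11 ± 0.74 for Prtn3 (adjusted p = 0.439) and 1.53 ± 0.43 for Ctsg (adjusted p = 0.101). Elane passed the threshold with DESeq2 (adjusted p = 0.0177) and within the 1600 series (adjusted p = 0.0337). Ctsg passed with DESeq2 (adjusted p = 0.00391), within the 1600 series (adjusted p = 0.0475) and without KO 4 (adjusted p = 0.0327). Without KO 1 and KO 2 the differences were 0.77 ± 0.60 for Elane and 0.69 ± 0.32 for Ctsg.

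Ctsc, the dipeptidyl peptidase that activates the granule serine proteases, held 2286, 2636, 1545 and 2267 CPM in WT and 2612, 2925, 3134 and 3369 CPM in KO. KO 1 fell just under WT 2 and the other KO libraries lay above all WT libraries. Its difference of 0.46 ± 0.15 did not pass (adjusted p = 0.123). It passed in 1 of 19 alternatives, the fit without a low-count filter (edgeR, adjusted p = 0.0135). With length and GC offsets the difference was 0.23 ± 0.11 (adjusted p = 0.289).

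Lrp1 encodes an endocytic receptor that clears complexes of proteases with secreted serpins. It held 14.6, 7.26, 17.2 and 19.5 CPM in WT and 5.51, 3.44, 5.98 and 4.69 CPM in KO, so that all KO libraries were below all WT libraries. It fell by 1.57 ± 0.28 on the log2 scale (edgeR, adjusted p = 0.0341). With length and GC offsets the difference was -0.46 ± 0.21 (adjusted p = 0.281). Its call was lost in 10 of 19 alternatives, with the direction unchanged in all of them. The classical, nonclassical and plasmacytoid marker sums separate the genotypes as Lrp1 does, and their part was not tested. The sum of 9 splenic macrophage markers overlapped, at 486.2 to 695.5 CPM in WT and 563.7 to 672.5 CPM in KO. Adgre1 and Hmox1 made up most of that sum, and the part of macrophages was not tested either. Of the 9 genes, 6 had positive differences and none passed the threshold. Vcam1 did not overlap, at 1.12 to 1.67 CPM in WT and 2.04 to 2.99 CPM in KO.

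On the side of the plasminogen activators that Serpinb2 inhibits, neither enzyme had enough reads to be tested, while their receptor was abundant. Plaur, the urokinase receptor, held 380, 349, 431 and 258 CPM in WT and 345, 271, 253 and 230 CPM in KO. The groups overlapped, and the difference of -0.37 ± 0.16 did not pass (adjusted p = 0.221). Furin, the target of Serpinb8, held 3.03 to 5.90 CPM in WT and 2.57 to 3.83 CPM in KO (-0.37 ± 0.25, adjusted p = 0.419). Gzmb, the target of Serpinb9, stayed under 1 CPM in all libraries, and its log2 difference was 0.52 ± 0.53 (adjusted p = 0.602). The 12 natural killer and T cell markers, Gzmb among them, summed to 1.901 to 3.675 CPM in WT and 3.223 to 5.474 CPM in KO. Ncr1 had 0 counts in all libraries. Nkg7, a granule membrane protein gene of that list, was higher in KO, at 0.360 to 0.496 CPM in WT and 1.07 to 2.83 CPM in KO (log2 1.92 ± 0.41, edgeR, adjusted p = 0.0433). These were 7 to 9 counts per WT library and 23 to 46 per KO library. With limma-voom or with length and GC offsets no gene was called higher in KO, Nkg7 included.

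**Figure D4:**
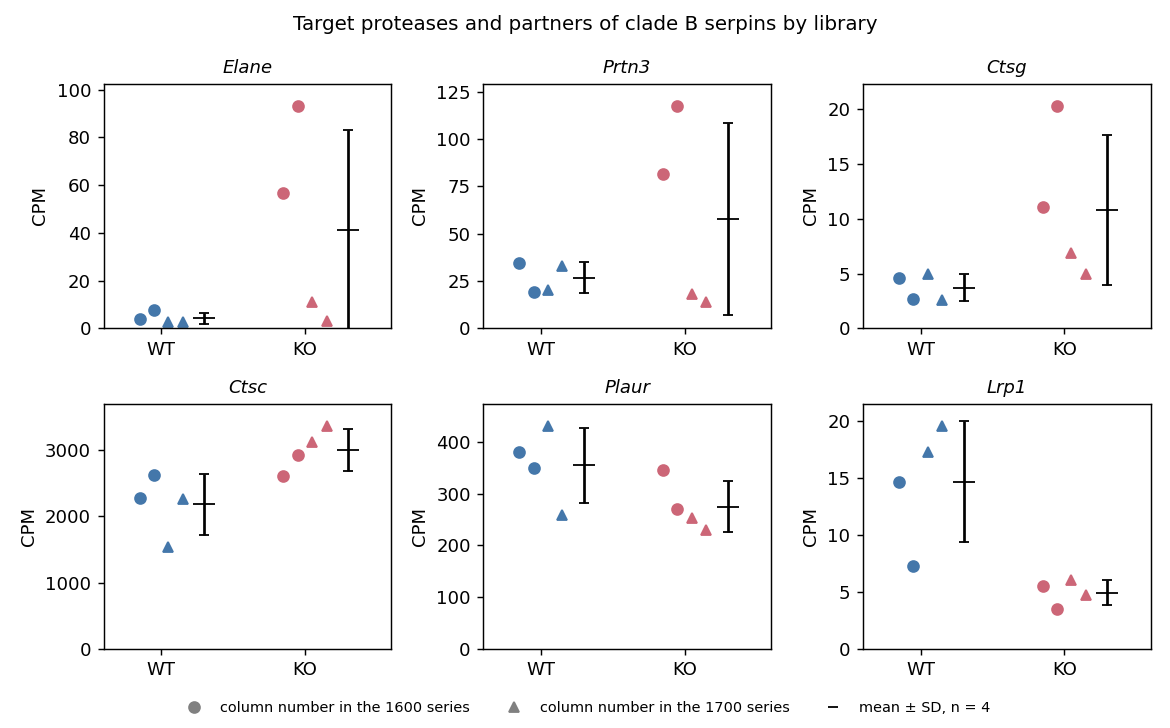
TMM-normalised CPM of 3 granule proteases, their activator Ctsc, the urokinase receptor Plaur and the endocytic receptor Lrp1 in each library, with mean ± SD. KO 1 and KO 2 carry the high values of Elane, Prtn3 and Ctsg, and all KO points of Lrp1 lie below the WT points.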

How the data were processed

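The authors deposited 1 table of raw read counts per gene for the 8 libraries. Per the labels, cDNA was made with an oligo-dT SMART-Seq v4 kit. Per the submitters' processing notes, HISAT2 2.0.5, featureCounts 1.5.0-p3 and the GRCm38 build were used. Annotation release: not given in the sources used here. Strand setting: likewise not given. Samples were grouped by the genotype in their titles.

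Counts were tested with edgeR 4.0.16 (R 4.3.3): low genes were removed by filterByExpr, libraries scaled by TMM, and quasi-likelihood tests adjusted by Benjamini-Hochberg over all 11222 tested genes, with a threshold of 0.05. The tested genes held 99.893% of counts. Genotype was the main comparison. The number series was tested with genotype as covariate, and its interaction with genotype separately. CPM are TMM-scaled, and correlations used log2 CPM with a prior count of 2. Exon lengths and coordinates came from GENCODE M21, in which 52125 of the 56748 identifiers were found. The scripts were tested on simulated data.

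Alternatives were RLE size factors, no or a stricter low-count filter, DESeq2 1.42.0, limma-voom (limma 3.58.1), a replicate block, the number series as covariate, length and GC offsets (mgcv 1.9.3), and left-out libraries. The members and all gene lists were chosen with earlier results of these data known. All members were described in every library. So were the proteases and partners that passed a test, and Serpinb7, the other clade B gene of at least 1 CPM on average. The 5 likest genes of 4 members were listed by r. Marker genes past the threshold between genotypes (edgeR) were Nkg7, Bst2 (log2 -0.71 ± 0.14, adjusted p = 0.0377) and Pou2f2 (-3.76 ± 0.46, adjusted p = 0.0170, 1 to 4 counts per KO library). In the interaction they were Prtn3, S100a9 (-3.86 ± 0.49, adjusted p = 0.0369) and Cx3cr1 (1.68 ± 0.27, adjusted p = 0.0369).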

Additional observations from a re-analysis of the deposited data

Results flagged for a closer look

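The genotype difference of Prtn3, which encodes proteinase 3, differed between the number series by a test of the interaction, -2.65 ± 0.48 on the log2 scale (edgeR, adjusted p = 0.0494). Within the 1600 series the difference of KO and WT was 1.88 ± 0.31, and within the 1700 series it was -0.74 ± 0.27. The interaction lost its call in 7 of 10 alternatives. No single library passed Dixon's criterion in the 34 groups of 4 libraries checked, where about 1.7 are expected by chance.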

How the results depend on the processing

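Serpinb1a was higher in KO under all 19 alternatives (log2 0.44 to 0.87) and was called in 10 of them. The choice of the family used this difference, so these counts describe it and do not support it. Serpinb6a and Serpinb8 stayed positive and Serpinb10 negative in all 19, whereas Serpinb2 and Serpinb9 changed sign in 3 each. Over all genes, the calls between genotypes numbered 119, and 742 without a filter, 784 with DESeq2, 0 with limma-voom (2352 unadjusted), 244 with a replicate block, 251 with the number series as covariate, 1 with length and GC offsets and 7 without KO 1 and KO 2; leaving out 1 library gave 0 to 515. The calls of the number series ran from 0 to 4 and those of the interaction from 3 to 628 when 1 library was left out. Members called numbered 0 with limma-voom, offsets, without KO 1 and KO 2 and within the 1600 series, and 0 to 1 with 1 library left out: the call of Serpinb1a was lost without WT 1, WT 3, WT 4, KO 2 or KO 3. Signs reversed for Prtn3 (-0.74 without KO 1 and KO 2, -0.74 within the 1700 series), Furin (0.060 with offsets) and Casp1 (-0.11 with offsets, -0.029 within the 1600 series). With 1 library left out, the interaction ranged from -0.12 to 0.27 for Serpinb8 and from -0.20 to 0.47 for Serpinb10, and the series difference of Serpinb9 from -0.29 to 0.080. The cause was not tested. The title numbers did not pair the libraries (correlations of same-numbered libraries -0.0494 to 0.0926), and the replicate block gave 0.70 ± 0.14 for Serpinb1a. Fits within a series and longest-transcript lengths were chosen after seeing the data. Depth limits Serpinb2, at 11 to 51 counts.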

Other observations

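Serpins of the other clades, which are mostly secreted, were scarce in these monocytes. Of 33 listed, 21 had 0 counts in all libraries and 3 were tested. Serpini1 (neuroserpin) averaged 1.74 ± 0.74 CPM over the WT libraries and 3.03 ± 0.81 CPM over the KO libraries (SD, n = 4), a log2 difference of 0.80 ± 0.32. Serpina3g held 7.28 ± 5.37 and 5.91 ± 2.74 CPM and Serpinf1 1.15 ± 0.49 and 1.30 ± 0.96 CPM in the same groups. None of the 3 passed the threshold between genotypes in edgeR, with adjusted p = 0.178 for Serpini1, 0.772 for Serpina3g and 0.905 for Serpinf1.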
